A study of Phanerodontia chrysosporium with 18 samples.

Results

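Genes for lipases and esterases, the carnitine shuttle and fatty acid beta-oxidation were followed in the white-rot fungus Phanerochaete chrysosporium between 96 h and 40 h of growth on spruce sapwood. Members were the gene models whose curated function or InterPro domain text in the deposited table named a lipase, a type B carboxylesterase, an acyl-CoA dehydrogenase or oxidase, an enoyl-CoA hydratase, carnitine, the ChoActase acyltransferase domain or a thiolase. The pattern matched 68 of 13602 models. It left out 10 that were annotated as GDSL esterases or as members of a carbohydrate esterase (CE) family. The remaining 58 comprised 35 models for lipid release, 6 for the carnitine shuttle and 17 for beta-oxidation. No model carried the words enoyl-CoA hydratase, and no member fell outside these 3 roles.

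All libraries came from strain RP78 grown on thin spruce sections set in agar with nitrogen and mineral salts and without a carbon nutrient. The 96 h and 40 h groups each held 3 libraries, each made from poly-A selected RNA of 20 pooled sections and sequenced in 3 lanes. The lanes of a library were averaged and counted once. Values are RPKM, reads per kilobase of gene model, scaled to the reads of the library, so levels can be set side by side between genes. A pool holds the whole colony, so fewer hyphae of a kind and less RNA per hypha cannot be told apart.

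Lipases and esterases cut ester bonds and release fatty acids from storage fats, membranes or external substrates. Carnitine acyltransferases and a mitochondrial carrier move acyl and acetyl groups across organelle membranes in the form of carnitine esters. Beta-oxidation then shortens acyl-CoA chains in repeated cycles of oxidation, hydration, a further oxidation and thiolytic cleavage, in peroxisomes and in many filamentous fungi also in mitochondria, and yields acetyl-CoA. Sapwood holds fats in its living storage cells, and the fungus has its own membrane and storage lipids.

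All 58 members had at least 1 RPKM in at least 3 libraries and were tested, and none had a lane at the floor of the table. Calls are adjusted p-values below 0.05 in limma on log2(RPKM + 1), fitted and adjusted by the Benjamini-Hochberg method over 11725 models, of which 62.0% were called. Of these models 26.3% were called higher and 35.6% lower at 96 h, a difference that nearly vanished with trimmed-mean scaling (31.7% higher and 31.9% lower). Of the 58 members 41 (70.7%) were called, 19 of them higher and 22 lower, with 8 and 11 at least 2-fold. The libraries of the 2 times did not overlap for 20 members higher and 23 lower, beside 69.3% of all tested models (29.5% higher and 39.8% lower). The background for changes of at least 2-fold was 8.35% of tested models higher and 7.47% lower. Members were more abundant than the typical gene, with a median of 43.4 RPKM at 96 h and 44.5 RPKM at 40 h, against 17.4 and 17.8 RPKM over all tested models. Among the libraries, 96 h library 2 stood apart, with correlations across genes of 0.984 and 0.992 to the other 96 h libraries, which correlated at 0.995 with each other. It was the 96 h library nearest to the 40 h mean for 23 of the 41 called members (56.1%) and for 55.5% of all called models. Without it, the calls were 14 higher and 14 lower for lipid release, 1 and 4 for the carnitine shuttle and 4 and 7 for beta-oxidation. Over all tested models 27.7% were then called higher and 40.9% lower, against 26.3% and 35.6% with it.

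**Figure D1:**
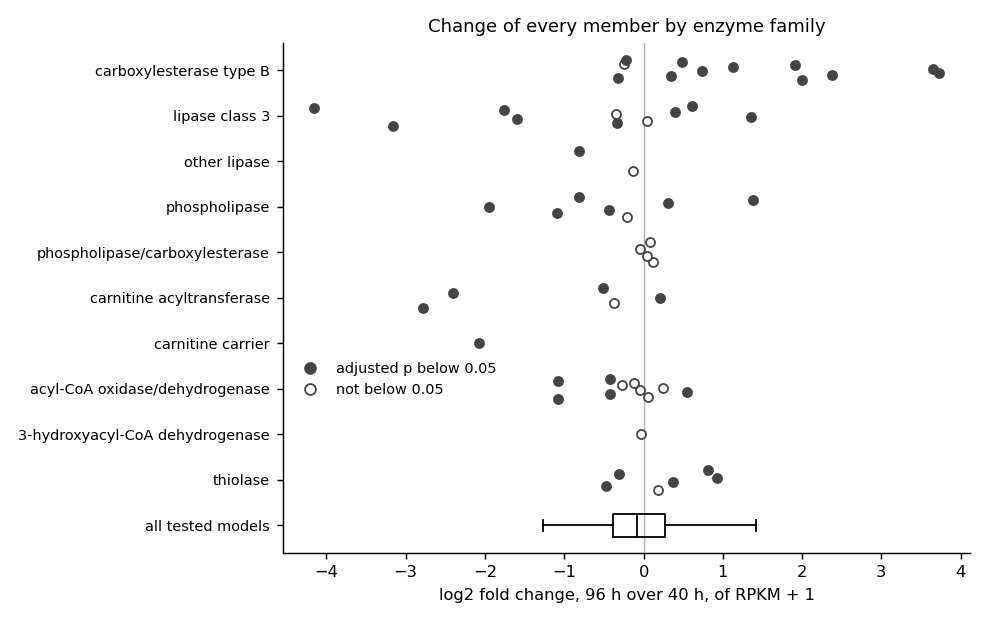
Log2 fold change (96 h over 40 h, of RPKM + 1) of each of the 58 members by enzyme family, with filled points for adjusted p below 0.05. The box shows the quartiles and the whiskers the 5th to 95th percentile of the 11725 tested models. Carboxylesterases spread to the right up to 3.73, while class 3 lipases and carnitine genes reach -4.16 and -2.79, and the beta-oxidation families stay between -1.08 and 0.93.

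Lipid release split by enzyme family. Of the 35 models 14 were called higher and 12 lower at 96 h, a called share of 74.3%. Over all tested models 62.0% were called, 26.3% higher and 35.6% lower. The median log2 fold change was 0.05 against -0.08 over all tested models. Type B carboxylesterases, a broad family that holds secreted lipases and cholinesterase-like esterases, were called higher for 9 of 12 models and lower for 2, or for 1 with trimmed-mean or median scaling. Class 3 lipases, a family of triacylglycerol lipases that also holds feruloyl esterases, were called lower for 5 of 10 models and higher for 3. The summed level of the 12 carboxylesterases was 2741 ± 221 RPKM at 96 h and 656 ± 25.7 RPKM at 40 h (SD, n = 3 libraries each), a ratio of 4.18. That of the 10 class 3 lipases was 513 ± 59.2 RPKM at 96 h and 1544 ± 181 RPKM at 40 h, a ratio of 0.332. At 96 h a single model, 3004591, gave 43.8% of the carboxylesterase sum, and without it the ratio was 2.74. The class 3 sum was led by 3024676 at both times, with 63.7% at 96 h and 72.2% at 40 h, and without it the ratio was 0.433. The fall that remained without 3024676 rested largely on model 2096829, with 23.9 RPKM at 96 h and 224 RPKM at 40 h.

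Model 3004591, curated as an esterase or lipase, was the most abundant member at 96 h and stood at rank 63 of all 13602 models there, against rank 1436 at 40 h. It had 1296, 1030.4 and 1275 RPKM in 96 h libraries 1, 2 and 3, against 101, 90.1 and 92.1 RPKM in the 40 h libraries. Its lowest 96 h library, number 2, lay far above every 40 h library. The log2 fold change was 3.65 (SE 0.11, adjusted p = 1.63e-07).

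Model 2938536, with the same curated name, had the largest rise of the members. Its levels were 256, 233 and 236 RPKM at 96 h, against 19.7, 17.9 and 14.7 RPKM at 40 h. The groups were far apart with little spread inside either, and the log2 fold change was 3.73 (SE 0.11, adjusted p = 1.51e-07).

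The carboxylesterase 2905144, curated as acetylcholinesterase-like, had 274, 177 and 231 RPKM at 96 h, against 46.0, 45.1 and 36.0 RPKM at 40 h. Its 96 h libraries varied, with library 2 lowest, and all lay above the 40 h ones (log2 fold change 2.38, SE 0.16, adjusted p = 9.59e-06). Model 1479415, a further curated esterase or lipase, had 172, 179.8 and 158 RPKM at 96 h, against 41.7, 47.4 and 37.1 RPKM at 40 h. It rose by 1.99 on the log2 scale (SE 0.10, adjusted p = 1.86e-06). No overlap between the times was a condition for naming a lipid release model for a large change.

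Model 3005443, a carboxylesterase without a curated name, had 471, 426 and 480 RPKM at 96 h, against 111, 128 and 124 RPKM at 40 h. It was the second most abundant carboxylesterase at 96 h and, unlike the 4 models above, has no predicted signal peptide in the table. Its log2 fold change was 1.92 (SE 0.09, adjusted p = 1.05e-06). The other 4 risen carboxylesterases had log2 fold changes between 0.34 and 1.13. Among them 2903808, curated as a lipase, had 140.0 ± 6.31 RPKM at 96 h and 110.3 ± 5.09 RPKM at 40 h. The 2 called lower fell by little, with log2 fold changes of -0.32 and -0.22, and the model not called had an adjusted p of 0.051 at about 1 RPKM. The call at -0.22, 3031980, singled out after its values were seen, also lay at about 1 RPKM (adjusted p = 0.039). It was lost with trimmed-mean scaling (adjusted p = 0.0576), median scaling (0.0589), library weights (0.0876), the lane median (0.0558) and the replicate block (0.0641). It was also lost without 96 h library 1 (0.0655), 96 h library 3 (0.116), 40 h library 2 (0.127) or 40 h library 3 (0.116).

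The class 3 lipases gave the largest falls of the members. Model 3024680 had 2.58, 1.97 and 1.81 RPKM at 96 h, against 65.0, 49.9 and 49.4 RPKM at 40 h. All 3 libraries at 96 h lay near the low end of the members, and the log2 fold change was -4.16 (SE 0.13, adjusted p = 2.22e-07). This scale understates the change of low genes: the ratio of mean RPKM, 40 h over 96 h, was 25.9, against 17.9 for RPKM + 1.

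Model 2096829, curated as hypothetical but carrying the lipase domain, had 23.1, 23.2 and 25.4 RPKM at 96 h, against 273, 216 and 183 RPKM at 40 h. It fell by 3.16 on the log2 scale (SE 0.14, adjusted p = 8.95e-07), and the spread was wider at 40 h. Model 3024676 was the most abundant member at 40 h, at rank 66 of all models, and stood at rank 378 at 96 h. Its levels were 361, 303 and 317 RPKM at 96 h, against 1251, 1060.5 and 1031 RPKM at 40 h. It fell by 1.76 on the log2 scale (SE 0.11, adjusted p = 5.54e-06), and even after the fall it was the most abundant lipase of its family.

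Model 2975595 was lower throughout, with 2.34, 1.64 and 1.94 RPKM at 96 h, against 9.04, 8.02 and 6.89 RPKM at 40 h (log2 fold change -1.59, SE 0.12, adjusted p = 1.54e-05). One class 3 lipase moved strongly the other way. Model 2977053 had 32.2, 29.3 and 32.9 RPKM at 96 h, against 11.4, 11.95 and 11.7 RPKM at 40 h. It rose by 1.35 on the log2 scale (SE 0.07, adjusted p = 2.12e-06), and replicates of each time lay close together. The remaining 5 class 3 models had log2 fold changes between -0.35 and 0.61. Model 2990121 was not called, with 94.5, 42.9 and 50.2 RPKM at 96 h, against 89.2, 56.8 and 84.2 RPKM at 40 h. Its groups overlapped, and library 1 at 96 h was the highest of the 6. Without that library the adjusted p was 0.0169 and the log2 fold change -0.69.

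**Figure D2:**
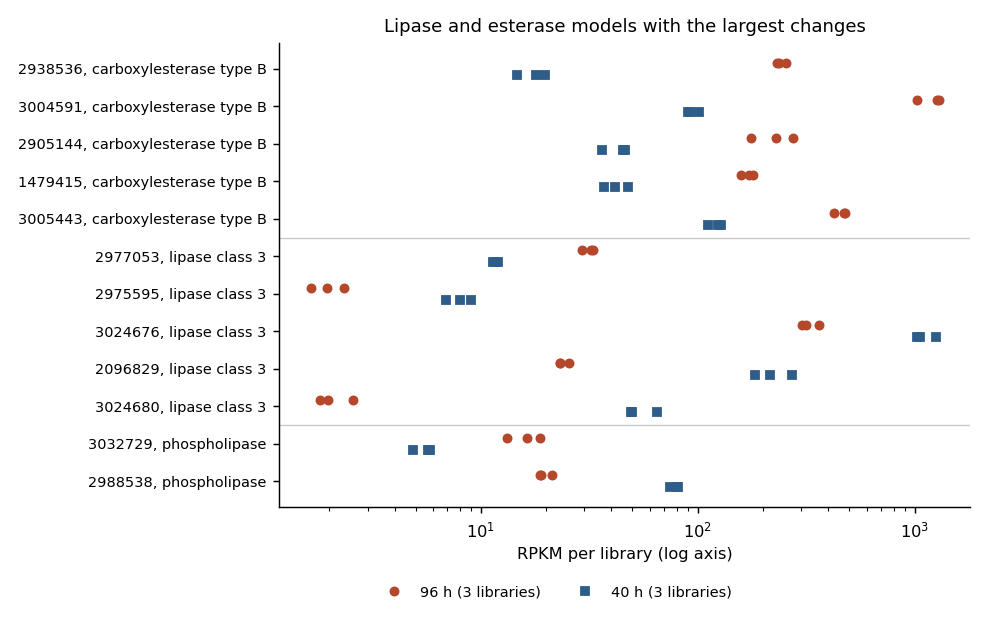
RPKM of each library (log axis) for the 12 lipid release models with the largest changes, with circles for the 3 libraries at 96 h above squares for the 3 at 40 h. The 12 were taken from called models without overlap between the times, so the gaps follow from the choice. All 5 carboxylesterases shown lie higher at 96 h, and 4 of the 5 class 3 lipases shown lie lower.

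Phospholipases, which act on membrane lipids, were called lower for 4 of 7 models and higher for 2. Over all tested models 35.6% were called lower and 26.3% higher. Phospholipase D cleaves the head group from phospholipids and leaves phosphatidic acid. The model curated as phospholipase D, 2988538, had 19.0, 21.3 and 18.8 RPKM at 96 h, against 74.7, 80.0 and 81.3 RPKM at 40 h. This was the largest change of a phospholipase (log2 fold change -1.95, SE 0.07, adjusted p = 4.75e-07). The 2 other models with this domain also fell. Model 3037787 had 11.4 ± 0.836 RPKM at 96 h and 20.9 ± 0.738 RPKM at 40 h, and 2944294 had 16.5 ± 0.339 RPKM at 96 h and 22.7 ± 0.682 RPKM at 40 h.

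Lysophospholipases remove the acyl chain left on a partly deacylated phospholipid. The curated lysophospholipase 3032729 had 18.7, 13.1 and 16.3 RPKM at 96 h, against 4.89, 5.85 and 5.70 RPKM at 40 h. It rose by 1.39 on the log2 scale (SE 0.13, adjusted p = 4.67e-05). The 3 models with its catalytic domain split into 2 called higher and 1 lower. Both phospholipases with a predicted signal peptide were called higher, and of the 5 without one 4 were called lower. These few models stand beside 62.0% of all tested models called. Over all lipid release models no such split appeared, with 8 higher and 6 lower with a signal peptide and 6 and 6 without. The smaller phospholipase rise, 2990357 (log2 fold change 0.30, adjusted p = 0.0114), was singled out after its values were seen. It was not called without 96 h library 3 (adjusted p = 0.0512) or 40 h library 2 (0.0502). The 4 models of the phospholipase/carboxylesterase family, which in other organisms holds acyl-protein thioesterases, were not called, with log2 fold changes between -0.04 and 0.11. Among them model 2919339 had 48.4 ± 4.74 RPKM at 96 h and 46.7 ± 3.46 RPKM at 40 h. For model 2897227 the values were 22.4 ± 2.41 and 20.5 ± 0.785 RPKM at these times, and it was called after trimmed-mean scaling (adjusted p = 0.0435). Of 2 further lipases, 2986770 had 52.5 ± 6.82 RPKM at 96 h and 92.9 ± 0.865 RPKM at 40 h (log2 fold change -0.82, SE 0.10, adjusted p = 0.00017), and the other was not called.

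A signal peptide, the tag that sends a protein into the secretory pathway, was not used to choose the members. The table gives a probability of at least 0.5 for 17 of the 35 lipid release models (48.6%), 1 of the 6 carnitine models and 0 of the 17 beta-oxidation models, against 1211 of all 13602 models (8.90%). The 1 carnitine model is the mitochondrial carrier 3012378, with a listed probability of 1. The 8 carboxylesterases with a signal peptide summed to 1996 RPKM at 96 h and 355 RPKM at 40 h, with 5 called higher and 2 lower. The 4 carboxylesterases without one also rose, from 300 RPKM at 40 h to 744 RPKM at 96 h, and all 4 were called higher. The 6 class 3 lipases with one summed to 449 RPKM at 96 h and 1489 RPKM at 40 h. The 4 class 3 lipases without one summed to 64.3 RPKM at 96 h and 54.6 RPKM at 40 h. Most of the RPKM gained by carboxylesterases or lost by class 3 lipases thus lay in models with a signal peptide. Over all 17 lipid release models with one, 8 were called higher and 6 lower, and over the 18 without one, 6 and 6.

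The carnitine shuttle stood lower at 96 h. Of its 6 models 4 were called lower and 1 higher, a called share of 83.3% beside the 62.0% of all tested models. The median log2 fold change was -1.29 against -0.08 over all tested models. The 3 models with names in the curated column were the most abundant at 40 h and the ones that fell by more than 2-fold. The summed level of the 6 was 245, 293 and 229 RPKM in 96 h libraries 1, 2 and 3, against 987, 1029 and 1249 RPKM in the 40 h libraries. The sum at 96 h was 0.235 of that at 40 h, and 0.266 without 3004946.

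Carnitine O-acyltransferase 2376705, which transfers acyl groups between CoA and carnitine, had 46.1, 63.6 and 42.5 RPKM at 96 h, against 327, 329 and 399.6 RPKM at 40 h. Every 96 h library lay far below the 40 h ones, with library 2 the highest at 96 h, and the log2 fold change was -2.79 (SE 0.15, adjusted p = 3.04e-06). The second curated carnitine O-acyltransferase, 3004946, had 72.2, 98.8 and 70.6 RPKM at 96 h, against 397, 392 and 496 RPKM at 40 h. It fell by 2.40 on the log2 scale (SE 0.15, adjusted p = 5.45e-06), again with library 2 the highest at 96 h.

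The mitochondrial carnitine-acylcarnitine carrier 3012378 exchanges carnitine esters for free carnitine across the inner membrane. It had 47.3, 58.8 and 44.3 RPKM at 96 h, against 177, 213 and 258 RPKM at 40 h. The groups did not overlap, and the log2 fold change was -2.08 (SE 0.15, adjusted p = 1.42e-05). Without 96 h library 2 the log2 fold changes of model 2376705, model 3004946 and model 3012378 were -2.96, -2.56 and -2.20.

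The 3 acyltransferase models without a curated name had log2 fold changes between -0.51 and 0.20. Model 3036433 had 51.8, 38.7 and 40.7 RPKM at 96 h, against 55.1, 62.3 and 69.9 RPKM at 40 h. It fell by 0.51 on the log2 scale (SE 0.13, adjusted p = 0.00946), with the highest 96 h library just below the lowest 40 h one. Model 2917329 had 24.3, 24.9 and 24.96 RPKM at 96 h, against 20.5, 22.1 and 21.3 RPKM at 40 h. The rise of model 2917329 was small (log2 fold change 0.20, SE 0.06, adjusted p = 0.0222) and was not called without 96 h library 3 (adjusted p = 0.0803), 40 h library 1 (0.0816) or 40 h library 3 (0.0736), or with library weights (0.0545). Model 2917226 had 3.39, 8.36 and 6.04 RPKM at 96 h, against 9.42, 10.3 and 4.36 RPKM at 40 h. These values overlapped and did not pass the test (adjusted p = 0.369).

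The beta-oxidation models had log2 fold changes between -1.08 and 0.93. Of 17 models 4 were called higher and 6 lower, a called share of 58.8% beside the 62.0% of all tested models, and the median log2 fold change was -0.05. Only 2 models reached 2-fold, both lower. The summed level was 2372 ± 76.8 RPKM at 96 h and 2705 ± 304 RPKM at 40 h, with 2351, 2308 and 2457 RPKM in the 96 h libraries, against 2412, 2684 and 3018 RPKM in the 40 h libraries. The highest 96 h library exceeded the lowest 40 h one, so the sums overlapped.

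The first step is carried out by acyl-CoA oxidases, which pass electrons to oxygen and form hydrogen peroxide, or by acyl-CoA dehydrogenases, which feed the respiratory chain. The domain text does not tell the 2 kinds apart for most of the 10 models. Beside 35.6% called lower and 26.3% higher over all tested models, 4 of these 10 were called lower and 1 higher. Their called share lay below the 62.0% of all tested models. Model 136686, the most abundant of them, had 154, 228 and 205 RPKM at 96 h, against 399.6, 396 and 435 RPKM at 40 h. It did not overlap between the times and fell by 1.08 on the log2 scale (SE 0.14, adjusted p = 0.000301). Model 2990590 had 12.8, 11.1 and 10.5 RPKM at 96 h, against 26.2, 23.2 and 26.2 RPKM at 40 h. It fell by a similar amount at a far lower level (log2 fold change -1.08, SE 0.09, adjusted p = 2.89e-05).

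The model curated as acyl-CoA oxidase, 2947338, moved opposite to models 136686 and 2990590. It had 139, 132 and 148 RPKM at 96 h, against 81.9, 97.6 and 108 RPKM at 40 h. It rose by 0.55 on the log2 scale (SE 0.11, adjusted p = 0.00283) without overlap. The other 2 called lower, 2898076 and 3004313, both had log2 fold changes of -0.43. The call of model 2898076 was lost without 96 h library 3 (adjusted p = 0.0533), 40 h library 2 (0.0501) or 40 h library 3 (0.0516). The 5 models not called had log2 fold changes between -0.28 and 0.24. Of these, model 2984463, matched by an acyl-CoA oxidase C-terminal domain, passed without 96 h library 2 (adjusted p = 0.0252) or 40 h library 1 (0.0368). Model 2981745 passed without 40 h library 3 (model 2981745, adjusted p = 0.0209). The other 3 lay near no change, with log2 fold changes of -0.12 for 2990144, -0.05 for 2965910 and 0.05 for 2895939. Model 2965910 had the widest 96 h libraries of them, with 176, 116 and 150.5 RPKM at 96 h, against 138, 148 and 166 RPKM at 40 h. The sign for 2965910 turned without 96 h library 2 (model 2965910, log2 fold change 0.11).

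The single 3-hydroxyacyl-CoA dehydrogenase model, 138382, catalyses the second oxidation of the cycle. It had 122, 104 and 124 RPKM at 96 h, against 106, 119 and 132 RPKM at 40 h. The groups overlapped over most of their range, and the test did not pass (log2 fold change -0.03, SE 0.11, adjusted p = 0.827). The sign for model 138382 turned after trimmed-mean scaling (log2 fold change 0.05). The text pattern for other enzymes of this step matched no model beyond 138382. It missed the peroxisomal hydratase-dehydrogenase-epimerase 3004309, described below and chosen after its values were seen, which also carries out this step. That model was called lower (log2 fold change -1.02, adjusted p = 0.000399).

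Thiolases close the cycle by splitting off acetyl-CoA, and related thiolases join acetyl-CoA units in sterol synthesis. Of 6 models 3 were called higher and 2 lower, a called share of 83.3% beside the 62.0% of all tested models. The curated 3-ketoacyl-CoA thiolase 2976634 was the most abundant beta-oxidation model at both times, at rank 239 at 96 h and rank 157 at 40 h. It had 451, 417 and 494 RPKM at 96 h, against 539.5, 620.4 and 744 RPKM at 40 h. It fell by 0.47 on the log2 scale (SE 0.13, adjusted p = 0.0139), with no overlap. The second curated 3-ketoacyl-CoA thiolase, 2985713, had 361, 317 and 354 RPKM at 96 h, against 244, 262 and 296 RPKM at 40 h. It rose by 0.37 (SE 0.10, adjusted p = 0.012), so the 2 models of this name were called in opposite directions.

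Both low thiolases rose. Model 2986136 had 29.2, 26.5 and 28.6 RPKM at 96 h, against 13.4, 14.8 and 14.5 RPKM at 40 h (log2 fold change 0.93, SE 0.07, adjusted p = 1.64e-05). Model 2991081 had 24.1, 37.8 and 29.4 RPKM at 96 h, against 15.3, 18.8 and 15.8 RPKM at 40 h (log2 fold change 0.82, SE 0.16, adjusted p = 0.00253), with library 2 highest at 96 h. The thiolase call nearest the threshold was model 2987599, with 115 ± 6.81 RPKM at 96 h and 144 ± 17.4 RPKM at 40 h (log2 fold change -0.31, SE 0.10, adjusted p = 0.0261). It was not called after trimmed-mean scaling (adjusted p = 0.0776), with median scaling (0.0545), with library weights (0.0703), or without 40 h library 2 (0.0716) or 40 h library 3 (0.0926). For model 2975563 the levels were 279.6 ± 10.4 RPKM at 96 h and 247 ± 19.6 RPKM at 40 h. It was not called (adjusted p = 0.0886), but passed with trimmed-mean and median scaling (0.0202 and 0.0336).

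**Figure D3:**
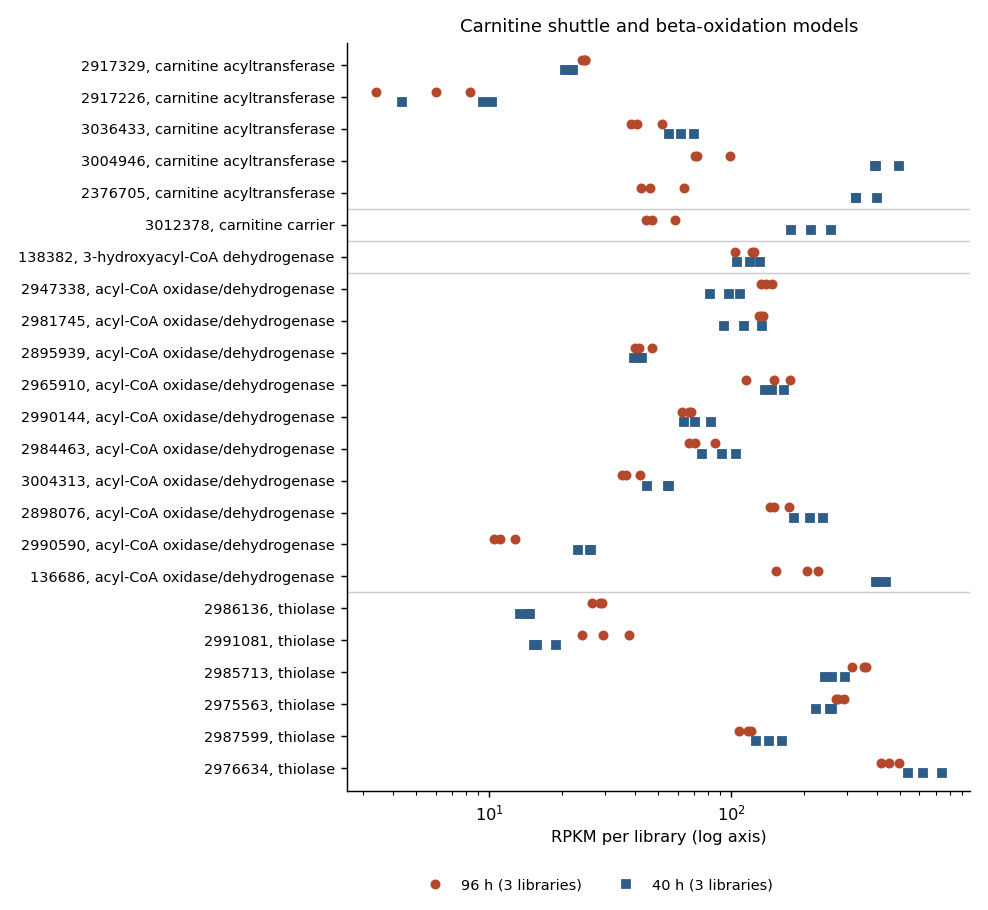
RPKM of each library (log axis) for all 23 carnitine shuttle and beta-oxidation models, with circles for 96 h above squares for 40 h. The curated carnitine genes 2376705, 3004946 and 3012378 show the widest gaps between the times, and most acyl-CoA oxidase/dehydrogenase models overlap or lie close.

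**Figure D4:**
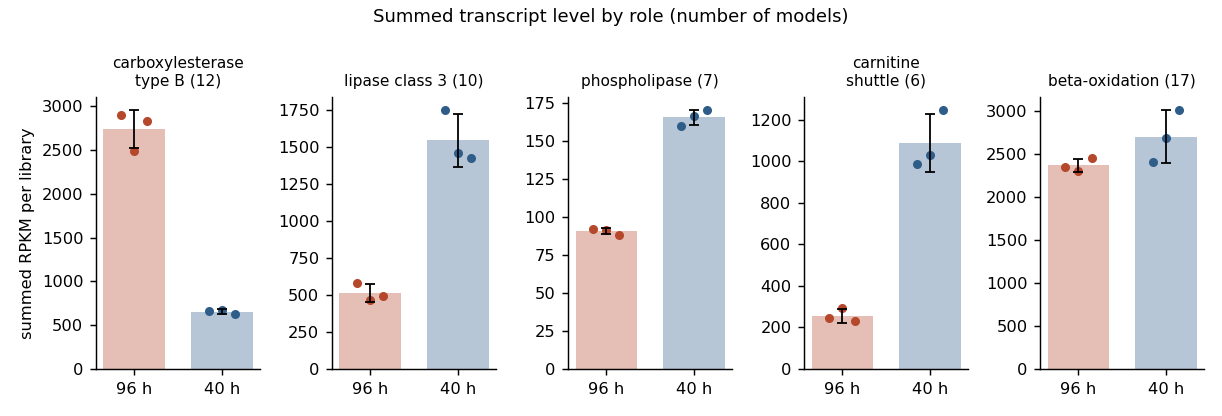
Summed RPKM per library for 3 lipid release families, the carnitine shuttle and beta-oxidation, with bars for the mean of 3 libraries, points for the libraries and error bars for the SD. The vertical scales differ between panels. The carboxylesterase sum is higher at 96 h (2741 against 656 RPKM), the class 3 lipase, phospholipase and carnitine sums are lower, and the beta-oxidation libraries overlap.

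Other steps of lipid metabolism were described from text patterns on the same annotation. The counts below stand beside 26.3% called higher and 35.6% called lower over all tested models. Peroxisome genes were called lower for 8 of 10 models and higher for 1. Pex11, which acts in peroxisome division, is model 2915162, with 204, 255 and 242 RPKM at 96 h, against 551, 646 and 762 RPKM at 40 h (log2 fold change -1.47, SE 0.14, adjusted p = 4.8e-05). The peroxisome biogenesis factor 1 model, 2100, had 12.8 ± 1.58 RPKM at 96 h and 30.7 ± 2.59 RPKM at 40 h (log2 fold change -1.20, SE 0.10, adjusted p = 2.94e-05). Of the 10, 8 are biogenesis factors, of which 7 were called lower and the peroxin-3 model 2978973, named as the exception after its values were seen, higher. The call of 2978973 (log2 fold change 0.23, adjusted p = 0.0196) was lost with library weights (0.059) and without 96 h library 3 (0.074), 40 h library 1 (0.0728) or 40 h library 3 (0.0703). The other 2 are peroxisomal hydratases. The hydratase-dehydrogenase-epimerase 3004309, chosen after its values were seen, carries out both the hydration and the further oxidation in fungal peroxisomes. It had 284 ± 41.2 RPKM at 96 h and 577 ± 81.6 RPKM at 40 h (log2 fold change -1.02, SE 0.14, adjusted p = 0.000399).

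Crotonase-fold and MaoC-like hydratases, a list chosen after seeing the data, were called higher for 5 of 12 models and lower for 2, the hydratase above among them. Those called higher numbered 3 with library weights and without 96 h library 3 or 40 h library 1. The crotonases 2903805 and 2990707 had the largest changes. Model 2903805 had 208, 56.2 and 136 RPKM at 96 h, against 31.9, 29.8 and 36.4 RPKM at 40 h, so its 96 h libraries differed widely with library 2 lowest (log2 fold change 1.81, SE 0.41, adjusted p = 0.00536). The crotonase fold serves reactions other than fatty acid oxidation too. The 2 models of patatin-like phospholipases, added in the same way, were not called, though 1 was called lower without 96 h library 2.

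The fatty acid activation list, matched mostly by the AMP-dependent synthetase domain, was called higher for 10 and lower for 6 of 27 tested models. Its called share was 59.3%, beside the 62.0% of all tested models. Its largest change, 3032518, is curated as NRPS, the usual short form of nonribosomal peptide synthetase, and the domain also occurs in other ligases. The model curated as acyl-CoA synthetase, 3023713, had 66.5, 70.2 and 66.6 RPKM at 96 h, against 12.6, 13.2 and 10.9 RPKM at 40 h. It rose by 2.38 on the log2 scale (SE 0.08, adjusted p = 2.87e-07), with the times well apart. The most abundant model of the list at 40 h, the acetyl-CoA synthetase 3025554, named after its values were seen, fell. Its levels were 371 ± 49.4 RPKM at 96 h and 926 ± 128 RPKM at 40 h (log2 fold change -1.315, SE 0.13, adjusted p = 7.82e-05). Fatty acid synthesis and desaturation genes were called higher for 4 and lower for 5 of 10 models. The delta-9 desaturases 1783939 and 2967871, which place the first double bond into saturated acyl chains, had log2 fold changes of 2.84 (SE 0.10, adjusted p = 3.65e-07) and 1.73 (SE 0.15, adjusted p = 2.97e-05). Model 1783939 had 34.3 ± 0.0818 RPKM at 96 h and 3.94 ± 0.662 RPKM at 40 h. Named after their values were seen, the delta-9 desaturase 2955052 also rose (log2 fold change 1.12), while 2987107, of the same curated name, fell (-0.36, adjusted p = 0.0041). The delta-12 desaturase 3007445 and the GNS1/SUR4 model 2986088 also fell, with log2 fold changes of -0.945 and -1.02.

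Glycerolipid synthesis genes were called higher for 5 and lower for 9 of 18 models. Some of these calls, singled out after their values were seen, lay near the threshold. The higher call of 2975330 (adjusted p = 0.0494) was lost with library weights (0.0847) and the replicate block (0.0852), but kept with trimmed-mean scaling (0.00792). The lower calls of 2938982 and 3003279 were lost with trimmed-mean scaling (0.162 and 0.101) and median scaling (0.0752 and 0.0747). The 2 protein kinases that the pattern matched by a diacylglycerol-binding domain were not called. The acyltransferases 1413445 and 3052210 had log2 fold changes of 1.15 and 0.66. Sterol and mevalonate genes were called lower for 13 and higher for 2 of 22 models, with 11 lower and 5 higher after trimmed-mean scaling and 12 lower and 4 higher after median scaling. A model with a sterol-binding domain, 3036773, and a sterol methyltransferase, 2981942, had log2 fold changes of -1.35 and -1.12. Of 5 catalases, which remove the hydrogen peroxide formed by acyl-CoA oxidases and other oxidases, 2 were called in each direction. Those called lower numbered 1 with trimmed-mean scaling, the lane median or the replicate block, and without 96 h library 1 or any 1 of the 40 h libraries. Catalase 3006241 had 5107 ± 168 RPKM at 96 h and 1225 ± 174 RPKM at 40 h (log2 fold change 2.07, SE 0.13, adjusted p = 6.5e-06), and 3005721 had 3.76 ± 0.795 RPKM at 96 h and 18.9 ± 3.25 RPKM at 40 h. The list for branched-chain and odd-chain acyl-CoA breakdown held 2 models. The methylcitrate dehydratase 2980934, named after its values were seen, was not called, and 2961152, an aminotransferase, had a log2 fold change of 2.20.

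The 10 esterases left out by the rule were called higher for 8 models and lower for 1, with 5 called higher without 96 h library 3. The CE16 models 3038104 and 3004047, members of a family of acetyl esterases, had the largest changes. Model 3038104 had 239, 209.9 and 278 RPKM at 96 h, against 2.45, 2.29 and 2.69 RPKM at 40 h. It rose by 6.12 on the log2 scale (SE 0.11, adjusted p = 2.08e-08). Model 3004047 had 305 ± 40.1 RPKM at 96 h and 30.8 ± 2.29 RPKM at 40 h (log2 fold change 3.26).

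**Figure D5:**
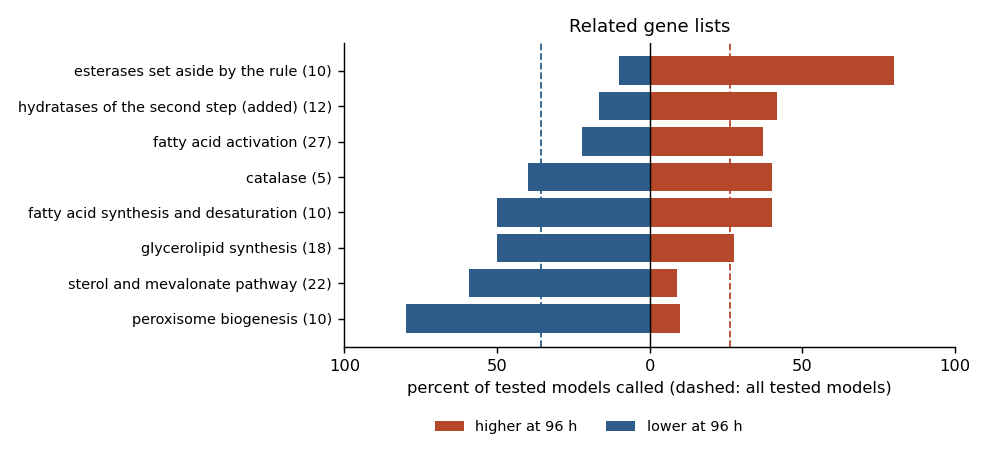
Percent of tested models in each list with at least 5 tested models that were called higher (right) or lower (left) at 96 h, with the number tested in brackets. Dashed lines mark all tested models, 26.3% higher and 35.6% lower. Peroxisome genes lie furthest towards lower (80.0%) and the esterases left out by the rule furthest towards higher (80.0%).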

How the data were processed

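The values analysed are RPKM per library and lane, made by the authors and deposited as 18 columns, in which 0.002 is the lowest value and was taken as no reads. CASAVA 1.8.2 is listed in the submitters' processing notes. The aligner, the counter and the genome build remain unstated in the labels and headers, as does how reads shared by similar lipase or esterase genes were assigned. To that extent, values of close relatives are uncertain. Per the file headers the table also holds the authors' mean RPKM, the ratio of the means, a p-value with its t score, and a fraction, the signal peptide probability. The deposited t was closer to one with lanes as replicates (r of log absolute t across models 0.991) than with libraries (0.827), so the deposited p-value was not used for calls; 54 of 58 members had one below 0.05, against 41 called here.

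The barcode was taken as the library and its 3 lanes were averaged. The 11725 models that reached 1 RPKM in 3 or more libraries entered a fit with limma 3.58.1 in R 4.3.3 on log2(RPKM + 1), with a variance trend and no block. Nothing says that the pools came from separate cultures, so the p-values rest on the spread among these 6 libraries, which may be technical. In simulated data with 11725 genes, 46 of 50 genes changed 1.5-fold and 50 of 50 changed 2-fold were recovered, with 15 false calls. The changed genes were drawn only from models above the median level, most genes were left unchanged, and noise was independent between libraries. These figures therefore do not cover low genes, a library that stands apart or data in which most models are called. Read totals are not given. Steps between the lowest values gave relative depths of 0.549 to 0.69 at 96 h and 0.714 to 1 at 40 h, from 41 models. The median SD of members on the log2 scale was 0.0257 between lanes, 0.120 between 96 h libraries and 0.112 between 40 h libraries.

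Members, lists and named genes were chosen with earlier results of these data known. Named were carnitine and beta-oxidation members, the 12 lipid release members with the largest called changes and no overlap, some of the most abundant of each lipid release family, and up to 2 called models of each other list. The branched-chain list had 1 and the patatin list 0. Exceptions are marked in the text. Same-numbered libraries had correlations of deviations of 0.136, 0.133 and -0.102, so the numbers were not taken as pairs. Alternatives were the pseudocount, filter, scaling, variance trend, library weights, a replicate block, the lane median, the threshold and the omission of each library in turn. Protein sequences and genome positions were not used here.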

Additional observations from a re-analysis of the deposited data

How the results depend on the processing

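Of 60 single models, 987 of 1020 values over the alternatives kept their direction and side of the threshold. The 60 were the models picked by the naming rule, many of them for large called changes. This share therefore does not describe calls near the threshold, several of which were lost as given above. Direction reversed for 4 models, none of them called. For model 138382 the log2 fold change was 0.05 with trimmed-mean scaling and 0.019 with median scaling, and -0.109 to 0.054 with 1 library left out. For model 2965910 it was 0.029 with trimmed-mean scaling and -0.185 to 0.114 with 1 library left out. Leaving out 1 library gave -0.03 to 0.107 for model 2919339 and -0.017 to 0.097 for model 2895939. Over all tested models, trimmed-mean scaling called 3721 higher and 3738 lower, against 3088 and 4179 without it (median log2 fold change -0.01 and -0.08). It gave 15 higher and 11 lower for lipid release, 1 and 4 for the carnitine shuttle and 5 and 5 for beta-oxidation. With a 2-fold minimum, 979 of all models were higher and 876 lower, with 8 and 6 for lipid release, 0 and 3 for the carnitine shuttle, 0 and 2 for beta-oxidation and 14 and 8 for the other lists. At an adjusted p below 0.01 the carnitine shuttle had 0 models higher and beta-oxidation 3 lower. With library weights the carnitine shuttle had 0 higher. Leaving out 1 library, the carnitine count higher ranged from 0 to 1, beta-oxidation lower from 4 to 7, and lipid release from 13 to 14 higher and 11 to 14 lower. The causes were not tested. The library numbers were not taken as pairs, and a replicate block gave 14 higher and 11 lower models for lipid release, 1 and 4 for the carnitine shuttle and 4 and 6 for beta-oxidation. It changed the call of none of the 60 single models. At 96 h the lower depth limits models near 1 RPKM.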
